A study of Mus musculus with 2 samples.

Results

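Mir378a, Mir193a and Mir193b are 3 of the 2202 miRNA genes counted in this series, taken by their GENCODE M21 gene names. They are grouped here because studies of adipose tissue describe them as miRNAs of brown fat. The material is adrenal gland from female B6CASTF1/J mice aged 4 days, a first-generation cross between the strains C57BL/6J and CAST/EiJ. The series has 1 group of 2 microRNA-seq libraries, replicate 1 and replicate 2, with no treatment, no mutant allele and no control group. The labels describe separate females but give both the same donor entry. Whether the spread between replicates 1 and 2 is that between animals is therefore not settled. Reads on the annotated strand of miRNA genes came to 4960537 in replicate 1 and 4506482 in replicate 2. The tables hold no protein-coding gene, so neither adrenal markers nor brown adipocyte markers such as Ucp1 could be checked, and "brown fat" is a name from the literature and not a property of these samples.

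Brown adipocytes burn fuel to make heat and are rich in mitochondria. Mir378a is transcribed as part of Ppargc1b, which encodes the coactivator PGC-1β of mitochondrial and lipid oxidation genes, and its miRNAs have been linked to energy balance and to the expansion of brown fat in mice. It is also abundant in heart and skeletal muscle. Mir193a and Mir193b are paralogous genes, each beside a copy of Mir365. The Mir193b and Mir365-1 cluster was described as needed for brown adipocyte differentiation in mouse cell culture, and a later mouse deletion left brown fat formation intact. A hairpin is cut into a 5p and a 3p arm, and bases 2 to 8 of a mature arm, the seed, direct it to its targets.

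The mature arms of Mir193a and Mir193b show what the paralogs share and how their reads can be told apart. They are given from RefSeq (GRCm38.p6), 5′ to 3′, with the seed in capitals.
miR-193a-3p: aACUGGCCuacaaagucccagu
miR-193b-3p: aACUGGCCcacaaagucccgcu
miR-193a-5p: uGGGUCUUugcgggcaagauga
miR-193b-5p: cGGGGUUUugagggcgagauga
The 3p arms hold the same seed, ACUGGCC, and no other of the 1679 mature names in the RefSeq table, which is not complete, carries it. Counted from 1 at the 5′ end, with the miR-193a base first, the 3p arms differ at U9C, A20G and G21C and are identical at 19 of 22 positions. The 5p arms differ at U1C, U5G, C6U, C11A and A16G, so their seeds are not the same. The whole hairpins, with both mature arms in capitals, show where each arm lies.
Mir193a: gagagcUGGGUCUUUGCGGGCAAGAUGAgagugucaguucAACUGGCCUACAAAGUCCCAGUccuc
Mir193b: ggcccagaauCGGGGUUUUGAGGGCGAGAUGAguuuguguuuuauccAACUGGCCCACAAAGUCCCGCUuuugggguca
The longest run of bases shared by these hairpins is 10, and neither shares a run of 18 with any other hairpin of the tables. The deposited counts are per hairpin gene, so how the reads divide between the 5p and 3p arms was not measured.

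The partner hairpins are shown because their counts depend on a sequence that occurs at both loci.
miR-365-3p (Mir365-1 and Mir365-2): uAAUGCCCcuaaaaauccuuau
miR-365-1-5p: aGGGACUUuugggggcagaugug
miR-365-2-5p: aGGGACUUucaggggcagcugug
The 3p arm is the same at all 22 positions in both genes, and the hairpins share a run of 27 bases. The 5p arms share a seed and differ at U10C, G11A and A19C, with the Mir365-1 base first. A read with more than 1 place of alignment is assigned to no gene in these tables, so the counts of Mir365-1 and Mir365-2 leave out reads of miR-365-3p that match both loci.

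Mir193a lies at chr11:79711969-79712034 and Mir193b at chr16:13449523-13449601, both on the plus strand (mm10). Neither lies within another annotated gene on its strand. Mir365-2 begins 14431 bases after the first base of Mir193a, and Mir365-1 begins 4317 bases after that of Mir193b. Neighbours were sought among protein-coding, lincRNA, antisense and processed-transcript genes of either strand. The nearest ones of the first pair are the lincRNA genes Gm11205, 6549 bases before Mir193a, and 9130204K15Rik, 55468 bases past Mir365-2. The second pair follows Mrtfb, which encodes a coactivator of serum response factor, at a distance of 31994 bases. Gm32817, a processed transcript, lies 8620 bases past Mir365-1.

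The 3 genes lay far apart in abundance, with Mir378a well above the paralogs. Mir378a had 63137 reads in replicate 1 and 87680 in replicate 2, which is 12728 and 19456 CPM (counts per 1000000 reads on miRNA genes). It made up 1.27% of the miRNA reads of replicate 1 (1.26 to 1.28, 95% Wilson) and 1.95% of those of replicate 2 (1.93 to 1.96), and ranked 21 and 18 among the 2202 genes. Its mean was 16092 CPM ± 4758 (SD, n = 2). Mir193a had 818 and 943 reads in replicates 1 and 2, or 165 and 209 CPM, ranking 186 and 158. Its mean was 187 CPM ± 31.4 (SD, n = 2). Mir193b had 491 and 345 reads, or 99.0 and 76.6 CPM, ranking 213 and 212, with a mean of 87.8 CPM ± 15.9 (SD, n = 2). All 3 genes passed the minimum of 10 reads in both libraries, as did 377 of the 2202.

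**Figure D1:**
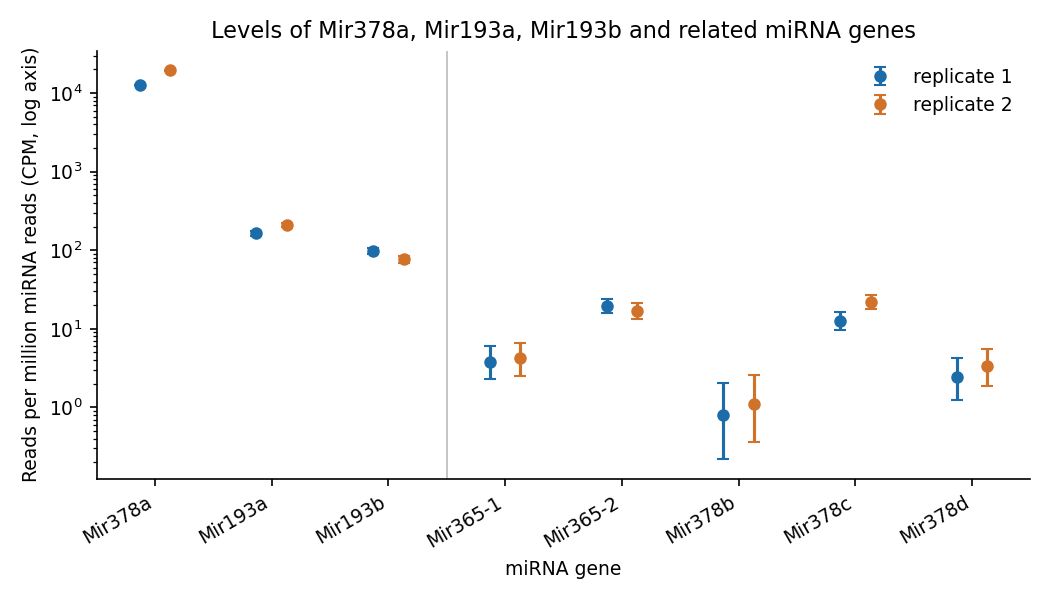
Levels of Mir378a, Mir193a, Mir193b and related miRNA genes in each library, as CPM on a log axis, with replicate 1 left of replicate 2. Bars are 95% exact Poisson intervals and cover counting error only. Mir378a stands at 12728 and 19456 CPM, and every related gene shown to the right of the line is below 25 CPM.

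The order Mir378a, Mir193a, Mir193b held in both libraries, and the intervals of neighbouring genes did not overlap. Mir193a lay between 154 and 177 CPM in replicate 1 (95% exact Poisson interval), against 90.4 to 108 CPM for Mir193b. In replicate 2 these intervals were 196 to 223 CPM and 68.7 to 85.1 CPM. Per base of hairpin (66 bases for Mir378a and Mir193a, 79 for Mir193b), Mir378a was 77.2 times the level of Mir193a in replicate 1 and 93.0 times in replicate 2. On the same scale Mir193a was 1.99 and 3.27 times Mir193b in replicates 1 and 2. Without division by hairpin length it was 1.67 and 2.73 times Mir193b. The mature arms of both genes have 22 bases, so hairpin length may not be the right scale for these reads. Such ratios compare reads of different sequences. How efficiently each sequence was captured in the libraries was not measured.

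Together the 3 genes took 1.30% of the miRNA reads of replicate 1 (1.29 to 1.31, 95% Wilson) and 1.97% of those of replicate 2 (1.96 to 1.99), almost all of it Mir378a. Mir193a and Mir193b together, which carry the same 3p seed, had 264 and 286 CPM in replicates 1 and 2, a mean of 275 CPM ± 15.5 (SD, n = 2).

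Mir378a lies at chr18:61397835-61397900 on the minus strand (mm10), in the first intron of all 3 annotated Ppargc1b transcripts that span it, 2389 bases past the end of the first exon. GENCODE M21 places another miRNA gene, Gm25301, over it on the plus strand (chr18:61397813-61397925). This overlap decides what the 3 deposited count columns show. On the annotated strand Mir378a had the 63137 and 87680 reads given above for replicates 1 and 2, and on the opposite strand it had 0 in both. In the column that ignores strand it also had 0 in both libraries. Gm25301 had 0 reads on its own strand in both libraries. The reads listed opposite to Gm25301 numbered 63137 and 87680, the same as those of Mir378a. A count of 0 in the strand-blind column is therefore no measure of the level of Mir378a. Mir193a and Mir193b overlap no other miRNA gene, and their strand-blind counts equalled their stranded counts, with 0 opposite reads.

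**Figure D2:**
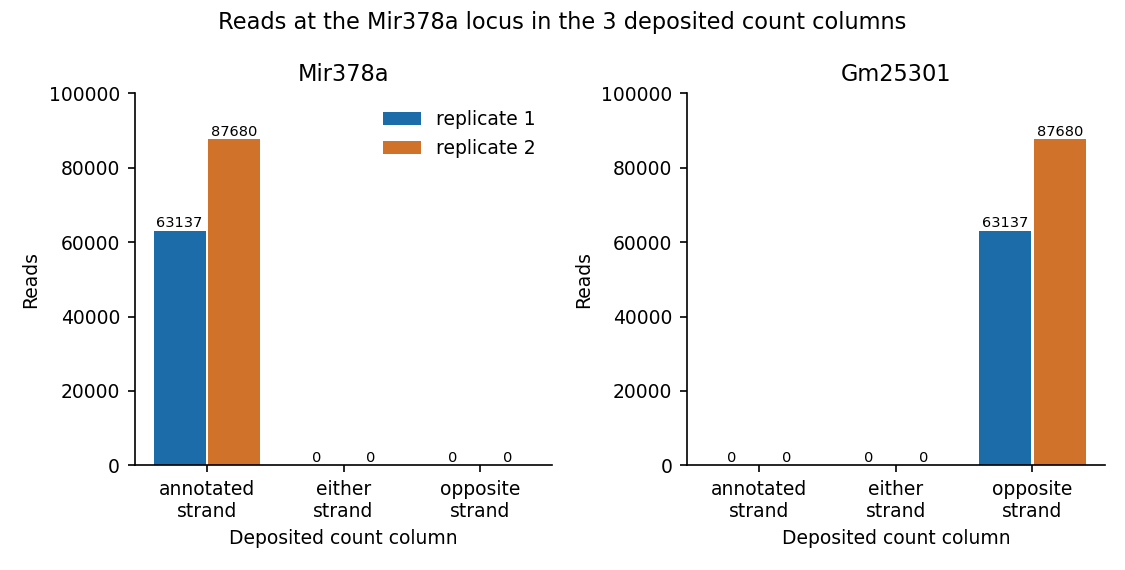
Reads of Mir378a and of the overlapping gene Gm25301 in the 3 deposited count columns (annotated strand, either strand, opposite strand), with replicate 1 left of replicate 2. The 63137 and 87680 reads of Mir378a appear on its annotated strand and opposite to Gm25301, and the column for either strand holds 0 for both genes.

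Other genes lost reads to such overlaps in the strand-blind column. Of the 377 detected genes, 27 had under 10 reads in the strand-blind column in both libraries, and all 27 overlap another miRNA gene on the opposite strand. Mir378a led them by mean CPM, followed by Mirlet7e, named after its values were seen, with 38013 and 35873 reads on its annotated strand. The strand-blind count set aside 1018277 reads of replicate 1 and 497237 of replicate 2 as falling on more than 1 gene. The gene with most reads among these was Mir126a, an endothelial miRNA that overlaps Mir126b. It had 777971 and 246547 reads on its annotated strand in replicates 1 and 2 but 11 and 5 in the strand-blind column, so it lies just outside the 27. Its reads equal 76.4% and 49.6% of the totals set aside, and those of Mir378a equal 6.20% and 17.6%.

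Between the libraries, Mir378a and Mir193a were higher in replicate 2 and Mir193b was higher in replicate 1, the call on Mir193b depending on the read minimum. An exact two-sided binomial test set the split of each gene's reads against that of the TMM-scaled library sizes, with Benjamini-Hochberg adjustment over the 377 detected genes. Such a test sets 1 library against another, with counting error as the only error, and no condition is compared. It called 68.2% of the 377 genes, 32.6% as higher in replicate 1 and 35.5% as higher in replicate 2, so a call on all 3 genes is not far from the background. For Mir378a the log2 ratio of replicate 1 over replicate 2 was -0.74 (95% exact interval -0.76 to -0.73), 1.67-fold higher in replicate 2, with an adjusted p under 1e-300, the smallest value printed here. For Mir193a it was -0.47 (-0.61 to -0.34), 1.39-fold higher in replicate 2, with an exact binomial test adjusted p of 1.38e-11. For Mir193b it was 0.24 (0.04 to 0.44), 1.18-fold higher in replicate 1, with an exact binomial test adjusted p of 0.0275. The call on Mir193b was lost with no read minimum, at an exact binomial test adjusted p of 0.0567, and its p ran from 0.000441 to 0.0266 over the other alternatives of this test. These folds, and those given further on, are of TMM-scaled reads and so differ from the ratio of CPM values. Each direction was the same with unscaled totals and with DESeq2 size factors. Unscaled totals move every log2 ratio by 0.13. In tissue as a whole, fewer cells of a type and less RNA per cell cannot be told apart.

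Set against the general spread of the pair, none of the 3 differences stood out. The log2 ratio had an SD of 0.97 over the 377 genes and quartiles at -0.44 and 0.47. A ratio at least as large in size as that of Mir378a was held by 103 genes (27.3%), as that of Mir193a by 183 (48.5%) and as that of Mir193b by 266 (70.6%), each count including the gene itself. The edgeR exact test, with the common dispersion estimated from this pair (biological coefficient of variation 0.433), called 1.86% of the 377 genes and none of these 3, with an adjusted p of 1 for each. Its unadjusted exact test p was 0.413 for Mir378a, 0.603 for Mir193a and 0.796 for Mir193b. The dispersion came from the same libraries that are compared, so a ratio near their usual spread could not be called. The lack of a call therefore adds nothing to the position among the 377 genes.

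**Figure D3:**
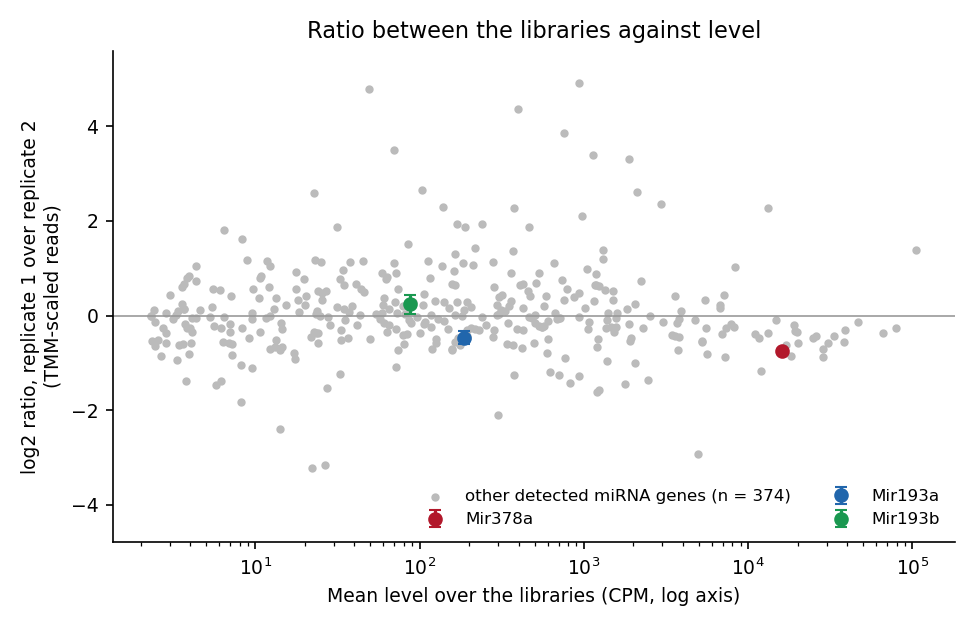
Log2 ratio of TMM-scaled reads, replicate 1 over replicate 2, against mean level (CPM, log axis) for the 377 detected miRNA genes. Bars on the coloured points are 95% exact intervals. Mir378a (-0.74) and Mir193a (-0.47) lie below 0 and Mir193b (0.24) above it, all within the scatter of the other genes.

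At the level of Mir378a, most genes were higher in replicate 2. Of the 25 genes with a mean of at least 10000 CPM, 2 were called higher in replicate 1 and 23 in replicate 2, with a median log2 ratio of -0.44. With unscaled totals 3 were higher in replicate 1 and 21 in replicate 2. Mir378a had the fourth lowest ratio of the 25, after Mir10b, Mir127 and Mir487b, which were named after their values were seen.

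The paralogs moved apart between the libraries, a statement that does not depend on scaling. There were 1.67 reads of Mir193a for each read of Mir193b in replicate 1 and 2.73 in replicate 2. The quotient of these ratios was 0.61 (95% exact conditional interval 0.51 to 0.72, counting error only). The ratio of Mir378a to Mir193b was 129 in replicate 1 and 254 in replicate 2, with a quotient of 0.51 (0.44 to 0.58). Mir378a and Mir193a stayed closer to each other, at 77.2 and 93.0 reads of Mir378a for each of Mir193a in replicates 1 and 2 and a quotient of 0.83 (0.75 to 0.91). How often other pairs of detected genes moved apart as far was not computed. The log2 ratio of single genes had an SD of 0.97, so these quotients do not set the 3 genes apart from others.

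The partner genes at the miR-193 loci were low in both libraries. Mir365-1 had 19 reads in replicate 1 and 19 in replicate 2, and Mir365-2 had 98 and 77. Neither was called, with log2 ratios of -0.27 (95% exact interval -1.27 to 0.73) for Mir365-1 and 0.08 (-0.37 to 0.53) for Mir365-2. The interval of Mir365-1 does not settle whether it followed Mir193b or Mir193a. Within the chromosome 11 locus there were 8.35 reads of Mir193a for each of Mir365-2 in replicate 1 and 12.2 in replicate 2. The quotient was 0.68 (0.49 to 0.94, counting error only). The log2 ratio of single detected genes had an SD of 0.97, so this quotient does not set the pair apart from others. Within the chromosome 16 locus Mir193b had 25.8 and 18.2 reads for each of Mir365-1, a quotient of 1.42 (0.70 to 2.89). As set out beside their sequences, these counts leave out reads of the shared 3p arm.

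**Figure D4:**
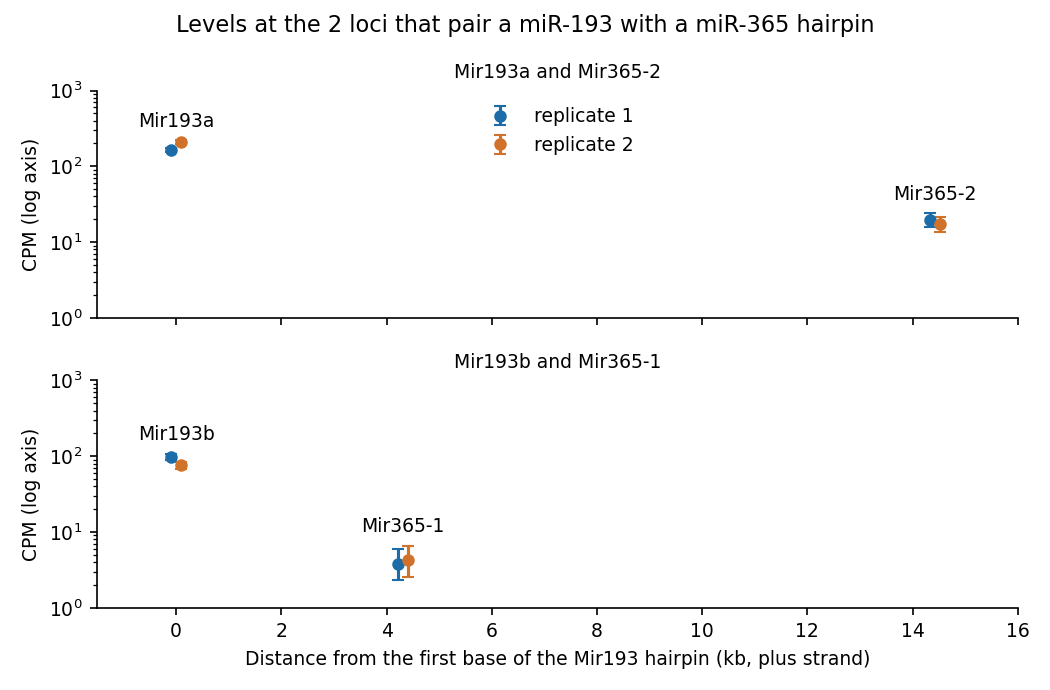
Levels (CPM, log axis) of the miRNA genes at the loci of Mir193a and Mir193b against distance in kb from the first base of the Mir193 hairpin, with replicate 1 left of replicate 2 and 95% exact Poisson intervals. Mir193a and Mir193b stand at 76.6 to 209 CPM, and Mir365-1 and Mir365-2 at 3.83 to 19.8 CPM.

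Genes named for the miR-378 family other than Mir378a held few reads. Mir378c had 63 reads in replicate 1 and 99 in replicate 2, Mir378d had 12 and 15, and Mir378b had 4 and 5. Mir378c was called higher in replicate 2 with a log2 ratio of -0.92 (95% exact interval -1.40 to -0.45) and an exact binomial test adjusted p of 0.000134. Mir378d had -0.59 (-1.82 to 0.60) with no call, and Mir378b was below the read minimum. For each read of Mir378c there were 1002 of Mir378a in replicate 1 and 886 in replicate 2, a quotient of 1.13 (0.82 to 1.58). The Mir378a hairpin shares a run of 20 bases with Mir378c, 19 with Mir378b and 15 with Mir378d. A read that lies wholly within a shared run matches more than 1 place and is assigned to no gene. Where the runs lie in the hairpins was not recorded. Counts of this family are uncertain for that reason.

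Other miRNAs reported to act on brown or beige adipocytes showed no common direction. Of 20 genes reported to favour these cells, the 3 above included, all passed the read minimum, calls of higher in replicate 1 numbered 7, calls of higher in replicate 2 also 7, and 6 genes were uncalled, a share of calls near the 68.2% over all 377 genes. The median log2 ratio was -0.03, against -0.04 over all 377 genes. Mir455, which promotes brown adipogenesis in mice, stood at 1001 CPM in replicate 1, against 1114 CPM in replicate 2, which was 1.22-fold higher. Mir182 had 324 and 109 CPM and was 2.71-fold higher in replicate 1. Mir203, also a miRNA of keratinocytes, had 446 and 967 CPM and was 2.38-fold higher in replicate 2. Mir196a-2, from a Hox gene cluster, was 1.31-fold higher in replicate 1, and Mir26b was 1.36-fold higher in replicate 2. Of the numbered copies, Mir26a-1 had 29 and 214 reads in replicates 1 and 2 and was 8.90-fold higher in replicate 2. Mir26a-2 had 320 and 119 reads and was 2.23-fold higher in replicate 1. Their hairpins share a run, as do 12 of the 20. Reads that align to more than 1 place are left out, so these folds may cover only part of the reads of Mir26a-1 and Mir26a-2. With unscaled totals the list had 8 genes higher in replicate 1 and 6 in replicate 2, and the uncalled Mir30c-2, Mir32 and Mir328 changed sign.

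Of 16 genes reported to restrain these cells, 12 passed the read minimum. Of these, 8 were called higher in replicate 1 and 4 in replicate 2, with a median log2 ratio of 0.28. Over all 377 genes, 32.6% were called higher in replicate 1 and 35.5% in replicate 2, and the median was -0.04. Mir214, a mesenchymal miRNA, stood at 3641 CPM in replicate 1, against 542 CPM in replicate 2, a 6.13-fold higher level in replicate 1. Mir106b had 1606 and 343 CPM and was 4.28-fold higher in replicate 1, whereas its neighbour Mir93 had 2183 and 2406 CPM and was 1.21-fold higher in replicate 2. Mir27b, an inhibitor of adipogenesis, was 1.33-fold and Mir155 1.21-fold higher in replicate 1. Mir494 was 1.51-fold higher in replicate 2. The 4 genes below the minimum were Mir133a-1, Mir133a-2, Mir133b and Mir199a-1, none with over 29 reads in either library, and 9 of the 16 hairpins share a run with another.

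**Figure D5:**
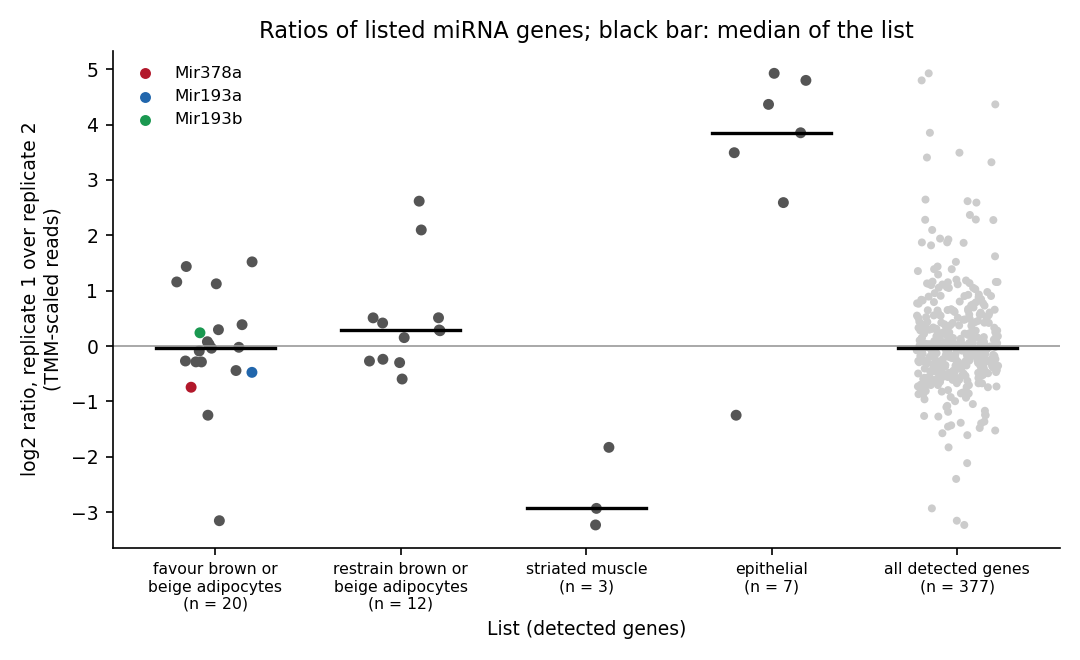
Log2 ratio of TMM-scaled reads, replicate 1 over replicate 2, for the detected genes of 4 lists and for all 377 detected genes. Black bars are list medians, at -0.03 for genes reported to favour and 0.28 for genes reported to restrain brown or beige adipocytes, -2.93 for striated muscle, 3.85 for epithelial and -0.04 for all genes.

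Markers of other cell types also differed between the libraries. Their counts are to be read against the 32.6% of all 377 genes called higher in replicate 1 and the 35.5% called higher in replicate 2. Of 10 striated muscle genes, 3 passed the read minimum and all 3 were called higher in replicate 2. Mir206, found in skeletal muscle, reached 1239 CPM in replicate 1, against 8627 CPM in replicate 2. The summed level of the list was 1254 and 8688 CPM in replicates 1 and 2. In replicate 1 Mir133a-1, Mir133a-2 and Mir208a were at 0, and in replicate 2 they had 3, 1 and 2 reads. Mir133b had 9 reads in replicate 1 and 29 in replicate 2. The miR-1 genes did not share that direction, with 18 and 4 reads of Mir1b, 5 and 2 of Mir1a-2 and 1 and 1 of Mir1a-1 in replicates 1 and 2. Mir1b lies over Mir1a-2 on the opposite strand, so they are not separate loci. None of the miR-133 genes, Mir208a and the miR-1 genes was tested, and 6 of the 10 hairpins share a run, which can hold counts near 0. Mir122, a liver miRNA, had 1449 and 2638 CPM in replicates 1 and 2. Epithelial genes went the other way, with 6 of 7 higher in replicate 1 and summed levels of 4709 and 1165 CPM. Endothelial genes summed to 171355 and 75063 CPM, most of it Mir126a at 156832 and 54709 CPM. Mir126a and Mir222 were called higher in replicate 1. Mir139, at 14194 and 19981 CPM, and Mir221 were called higher in replicate 2. Of 5 detected kidney genes 3, and of 3 erythroid genes 2, were higher in replicate 1. Of 4 leukocyte genes 3, and of 4 neuroendocrine genes 2, were higher in replicate 2. With unscaled totals or DESeq2 size factors the neuroendocrine genes split into 2 higher in replicate 1 and 2 higher in replicate 2. The part of these markers in the differences of Mir378a, Mir193a and Mir193b was not tested.

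Over the 2 libraries, the gene nearest to Mir378a in log2(CPM + 1) was Mir139, an intronic miRNA of Pde2a, at 14194 CPM in replicate 1, against 19981 CPM in replicate 2 (Euclidean distance 0.16). Mir127 (0.24) and Mir379 (0.46), both of the imprinted Dlk1-Dio3 cluster, came next. For Mir193a the nearest were Mir450b (169 and 216 CPM), Mir5099 and Mir1981, at distances of 0.06 to 0.14. For Mir193b they were Mir155 (104 and 78.6 CPM), Mir34b and Mir7-2, at 0.08 to 0.22. With 2 libraries, nearness says that levels were alike in each and no more.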

How the data were processed

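The authors deposited raw read counts per miRNA gene for each library, aligned to mm10 and annotated with GENCODE M21 per the file headers. Which aligner was run, and how, is not given in the sources used here. The tables have no header, and the strand of the 3 count columns was read from their values. The annotated-strand column was used throughout. Leading rows that name no gene were left out of library sizes. Of all reads, 42.4% and 39.9% fell on miRNA genes in replicates 1 and 2, 25.8% and 26.1% were unmapped, 25.9% and 27.8% mapped to several places and 5.96% and 6.24% met no miRNA gene. Reads of a CAST/EiJ allele that differs from the reference may be lost.

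Symbols and positions came from GENCODE M21 for all 2202 identifiers. RefSeq sequences (GRCm38.p6) matched 2 of the 3 genes reported on. Shared runs of 18 bases were searched on both strands of the GENCODE hairpins.

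CPM was computed over reads of miRNA genes. TMM factors were 1.05 and 0.956 for replicates 1 and 2 (edgeR 4.0.16). Size factors came from DESeq2 1.42.0, and other statistics from R 4.3.3 and scipy 1.17.1. Detection meant 10 or more reads in each library, and a call meant an adjusted p under 0.05. With 1 library on each side no residual degree of freedom is left to test against. Without molecular identifiers, reads may repeat a molecule, so intervals and p-values cover counting error only. The binomial test was checked on counts simulated with counting error only, so the check does not cover spread beyond that error. Genes named are the 3 members, the listed genes that serve as examples, genes that share a run with or overlap a member, the most abundant gene where a share turns on it, and the 3 detected genes nearest to each in log2(CPM + 1). The genes and lists were chosen with earlier results of these data known. Alternatives covered scaling, read minimum, strand, shared runs, the test and each library left out.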

Additional observations from a re-analysis of the deposited data

Results flagged for a closer look

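Gm25301, the annotated miRNA gene over Mir378a on the other strand, held 63137 reads of replicate 1 and 87680 of replicate 2 in the opposite-strand column, which enters no level or test between the libraries. It drew attention because that column held 0 reads at Mir378a, Mir193a and Mir193b in both libraries. The numbers equal the annotated-strand counts of Mir378a.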

How the results depend on the processing

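All 3 log2 ratios kept their direction under each alternative that gave a value. No call on Mir378a, Mir193a or Mir193b held with the edgeR exact test (log2 ratios -0.74, -0.47 and 0.24, adjusted p of 1 for each), which called 7 genes in all against 257 by the exact binomial test, all 7 higher in replicate 1, with 24 at an unadjusted p under 0.05. That test allows for the spread of the pair as well as counting error, but takes the spread from the libraries it compares. A ratio near that spread therefore could not be called by it. The call on Mir193b was also lost with no read minimum (0.24, exact binomial test adjusted p 0.0567), where 831 genes were tested. With reads of either strand, Mir193a had a mean of 221 CPM and Mir193b 105 CPM, since the total then leaves out reads over 2 genes. Mir378a had a mean of 0 CPM in that column, so the 3 genes together took 0.0327% of the reads. Leaving out each library gave 12728 to 19456 CPM for Mir378a, 165 to 209 CPM for Mir193a, 76.6 to 99.0 CPM for Mir193b and 1.30% to 1.97% for their sum. No ratio exists with 1 library, none for Mir378a on either strand, and none for Mir378a among hairpins that share no run. With 2 libraries each such value lies within 1 SD of the mean by construction, so these say nothing about stability. Apart from them, 28 values stayed on the same side of their threshold, within 1 SD or, for the number of genes called, within 1.5 times. No paired analysis was possible because the series holds a single group. Depth limits Mir365-1, Mir378b and Mir378d, which had 4 to 19 reads.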
